A study of Mus musculus with 6 samples.

Results

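The genes described here are 10 genes commonly read along the axis from epithelial to mesenchymal cells. They comprise the simple-epithelial keratins *Krt7*, *Krt8*, *Krt18* and *Krt19*, the epithelial splicing regulator *Esrp1* and the epithelial cadherin *Cdh1* on one side, and the cadherin *Cdh2*, the transcription factor *Snai1*, the intermediate filament gene *Vim* and the matrix gene *Fn1* on the other. They were chosen by name, and every probe carrying one of the symbols was taken. Of the 10 genes, 9 had a named probe, with 12 probes in all, of which 11 probes of 8 genes passed the filter on dim probes. These 8 genes stood among 8343 tested genes. *Cdh2* was not analysed here.

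Gene expression was compared between wild-type and *Prdm14*-null mouse ES cells on Illumina Mouse WG-6 arrays, 3 samples per genotype and 1 sample per array. Both genotypes had a C57BL/6 background and were grown in 2i, a medium with inhibitors of MEK and of glycogen synthase kinase-3, on dishes coated with fibronectin. The mutant allele came from EUCOMM ES cells, and knockout embryos came from crosses of heterozygous mice. *Prdm14* encodes a PR domain zinc-finger protein of pluripotent and germ cells. The samples of each genotype were taken at consecutive passages, whether separate lines were used is not given, and the p-values below therefore measure the spread between these samples, which may be technical.

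Keratins form the intermediate filaments of epithelial cells as pairs of one type I and one type II protein, and KRT8 with KRT18 is the pair of simple epithelia, including the outer layer of the blastocyst. E-cadherin, the product of *Cdh1*, holds ES cells together in compact colonies. In an epithelial-mesenchymal transition (EMT), SNAI1 and related factors bind E-box sequences in promoters such as that of *Cdh1*, cells lose E-cadherin and keratins, gain N-cadherin, vimentin and fibronectin, and lose the ESRP proteins that keep epithelial splice forms.

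Values are normalized log2 signals, so that a difference of 1 stands for a factor of 2. Differences are *Prdm14*-null minus wild type from limma, with the standard error (SE) of its moderated fit. A gene was called at an adjusted p under 0.01, and a probe counted as above background on an array at a detection p-value under 0.01. The unnormalized median signal ran from 56.8 to 80.6 over the 6 arrays, and 13456 to 14901 probes per array were above background. *Prdm14* itself was above background on the 3 wild-type arrays and on no null array, at least 6.66-fold and 2.45-fold lower by its 2 probes, although the sources used here do not place these probes relative to the targeted part of the gene. All 6 ES cell markers listed were measured, from *Pou5f1* to *Tdgf1*. The Y-linked *Eif2s3y* was above background only in the null samples, in all 3 of them (at least 7.51-fold higher), while *Uty*, also Y-linked, was above background in all 6 samples and not called (0.32, adjusted p = 0.132, limma). *Uty* was dim, at 5.82 to 6.01 on the wild-type arrays, whose lowest detectable signals were 5.53 to 5.75. Genotype and the *Eif2s3y* difference between the cells cannot be told apart. The measured members lie on autosomes, and whether the *Eif2s3y* difference between the cells bears on them was not tested.

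In the *Prdm14*-null cells, *Krt7* and *Krt8* fell and *Esrp1*, also an epithelial gene, rose strongly, while *Krt18* and *Cdh1* were not called. Among the mesenchymal genes *Snai1* rose, and *Vim* and *Fn1* were not called. Thus 1 of the 5 tested epithelial genes was called higher and 2 were called lower, and 1 of the 3 tested mesenchymal genes was called higher and 0 lower (limma; at an unadjusted p under 0.05, 1 mesenchymal gene, *Vim*, was lower). Over all 8343 tested genes, 6.68% were called higher and 8.38% were called lower. These shares, here and below, are for calls. The share of all genes at the unadjusted limit of 0.05 is larger and was not counted. For *Esrp1* and *Snai1* the lowest null value exceeded the highest wild-type value, as in 23.6% of all tested genes, and for *Krt7* and *Krt8* the groups were separate in the other direction, as in 21.5% of all tested genes.

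**Figure D1:**
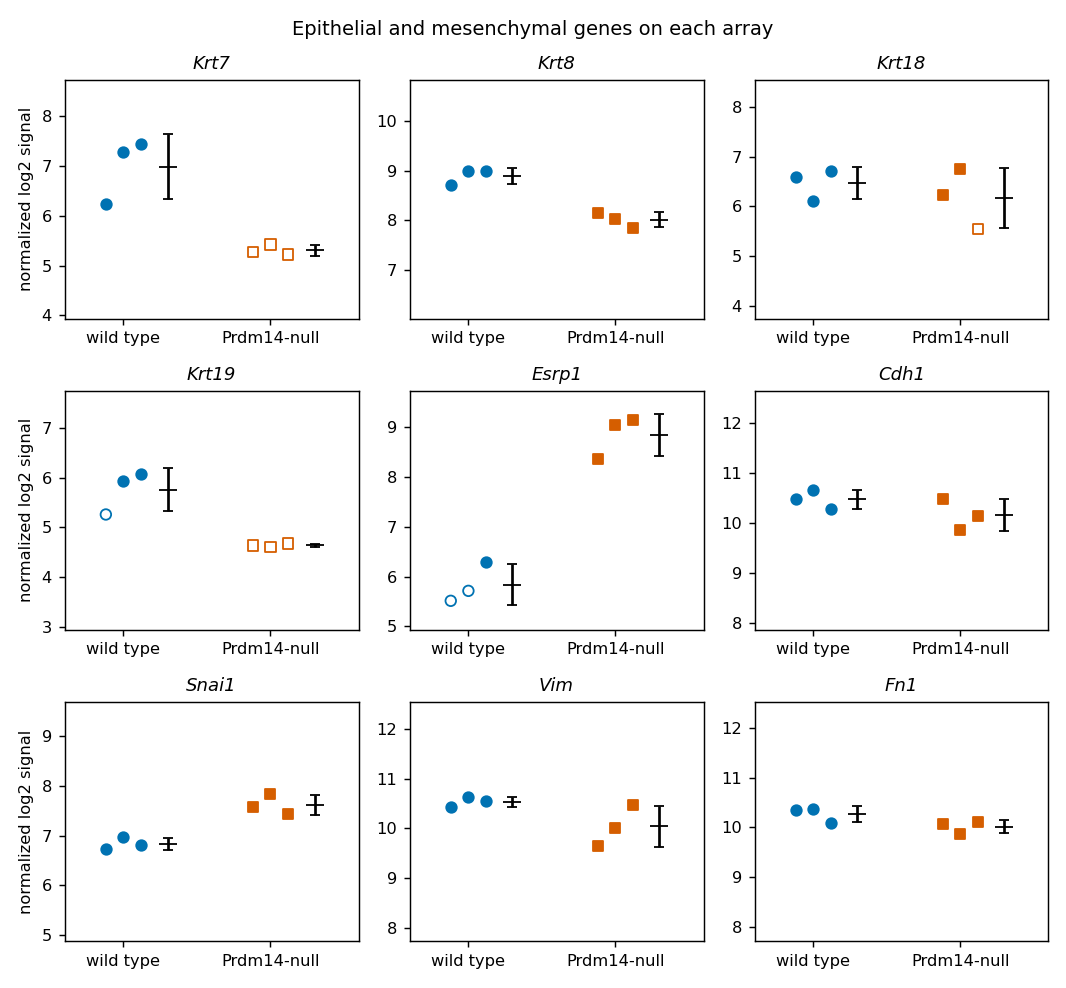
Normalized log2 signal of the brightest probe of each of the 9 measured genes on the 3 wild-type arrays (circles) and the 3 Prdm14-null arrays (squares), with the mean and SD beside each group; open symbols mark arrays on which the probe was not above background, and every panel spans the same log2 range. The groups do not overlap for Krt7, Krt8, Krt19, Esrp1 and Snai1 and overlap for the other 4 genes.

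The windows of 250 bases before the start sites are shown for the keratins and *Snai1*, since the 2 called keratins, the uncalled *Krt18* beside *Krt8*, and the EMT factor can be compared in them. They are RefSeq sequences of build GRCm38.p6, read 5′ to 3′ on the gene's strand, and such a window was matched for 5 of the members (*Krt7*, *Krt8*, *Krt18*, *Snai1* and *Vim*). Capitals mark the E-box bound by SNAI1 and the ZEB factors, searched as CAGGTG on both strands.
Krt7 (chr15:101412153-101412402, plus strand): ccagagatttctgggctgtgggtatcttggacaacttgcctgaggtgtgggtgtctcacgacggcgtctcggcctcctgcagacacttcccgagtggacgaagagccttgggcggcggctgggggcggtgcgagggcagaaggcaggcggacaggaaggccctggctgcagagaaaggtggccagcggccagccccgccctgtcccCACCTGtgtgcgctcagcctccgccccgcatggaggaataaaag
Krt8 (chr15:102004343-102004592, minus strand): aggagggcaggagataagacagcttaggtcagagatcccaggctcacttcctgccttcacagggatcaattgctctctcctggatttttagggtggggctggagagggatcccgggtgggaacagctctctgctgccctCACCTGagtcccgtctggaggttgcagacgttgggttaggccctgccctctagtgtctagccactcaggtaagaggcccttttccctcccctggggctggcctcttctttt
Krt18 (chr15:102027966-102028215, plus strand): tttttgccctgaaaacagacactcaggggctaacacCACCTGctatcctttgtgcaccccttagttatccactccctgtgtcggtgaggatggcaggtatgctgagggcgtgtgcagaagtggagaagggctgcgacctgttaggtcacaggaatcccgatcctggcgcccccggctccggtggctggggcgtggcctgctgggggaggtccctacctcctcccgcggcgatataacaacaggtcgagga
Snai1 (chr2:167537945-167538194, plus strand): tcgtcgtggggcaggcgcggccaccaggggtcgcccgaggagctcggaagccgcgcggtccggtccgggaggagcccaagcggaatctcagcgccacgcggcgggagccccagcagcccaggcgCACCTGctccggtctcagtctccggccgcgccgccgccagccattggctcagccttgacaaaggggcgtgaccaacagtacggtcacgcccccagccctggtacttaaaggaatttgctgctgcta
Each of these 4 windows held 1 E-box, which began 44, 111, 214 and 126 bases before the start site in the order shown, and the window of *Vim* held 0. Over 32851 windows of the same length, 17.2% held at least 1. The motif known for PRDM14, GGTCTCTAA on either strand, was found in 0 of the 5 windows and in 0.24% of all windows. A match is a description of these letters and not a binding site, and the called *Krt7* and *Krt8* shared the E-box with the uncalled *Krt18*.

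Among the keratins, *Krt7* encodes a type II keratin of simple and glandular epithelia. Its normalized log2 signals were 6.23, 7.28 and 7.45 in wild-type samples, while *Prdm14*-null samples gave 5.27, 5.42 and 5.22. All wild-type samples were higher than all null samples, the first wild-type sample lay apart from the other two, and no null array was above background. By group means the transcript was therefore at least 2.34-fold lower in the null cells. This bound sets the wild-type mean against the lowest detectable signal on the null arrays and has no confidence interval. The fitted log2 difference was -1.68 (SE 0.27, adjusted p = 0.00239 from limma). On the deposited scale, before background correction, the wild-type signals were 90.7, 213 and 275 and the null signals 92.0, 83.7 and 76.5, so that the first wild-type sample, the array with the lowest median signal, overlapped the null range before normalization. The call ended without the second wild-type sample, at -1.54 with an adjusted p of 0.0113, and without the first null sample (-1.66, adjusted p = 0.0107), and in the authors' processed values the difference was -0.61.

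*Krt8*, the type II keratin of the simple-epithelial pair, was measured well above background on all 6 arrays. It stood at 8.71, 8.99 and 9.0 in wild-type and at 8.14, 8.04 and 7.85 in *Prdm14*-null samples. The groups were separate and each was tight. *Krt8* fell by 0.89 on the log2 scale, a 1.85-fold lower level (SE 0.12, 95% confidence interval -1.16 to -0.61, adjusted p = 0.000912 from limma), and ranked 421 among the falls of the 8343 tested genes. This call stood in each of the 6 fits without 1 sample, with differences from -0.98 to -0.81.

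*Krt18*, the type I partner of *Krt8* and its neighbour on chromosome 15, was not called. Its signals were 6.59, 6.10 and 6.71 in wild-type and 6.23, 6.74 and 5.55 in *Prdm14*-null samples. The groups overlapped, the null samples were the more scattered, and the third null sample was the only one not above background. The difference was -0.30 (SE 0.28, 95% confidence interval -0.93 to 0.34, adjusted p = 0.481 from limma), an interval that includes the size of the change of *Krt8*. Whether the 2 partners moved unequally was tested on the difference of their log2 signals on each array. The *Krt8* minus *Krt18* difference was 0.59 smaller in the null samples (change of -0.59, exact permutation test, two-sided, p = 0.3, adjusted p = 0.4 over 2 pairs), in a design whose smallest possible p is 0.1. The change was -0.57 in the authors' processed values and -0.61 without background correction, with no overlap between the groups and that smallest p of 0.1 in both (exact permutation test, adjusted p = 0.2).

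*Krt19*, a small type I keratin of simple epithelia, was at the edge of detection. It gave 5.26, 5.94 and 6.08 in wild-type and 4.63, 4.60 and 4.67 in *Prdm14*-null samples. All null samples were lower than all wild-type samples, but only the second and the third wild-type arrays were above background. The gene therefore did not pass the filter, and no fold is given. The low first wild-type sample was shared by *Krt7*, *Krt8* and *Krt19*, and it was not shared by *Krt18*.

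**Figure D2:**
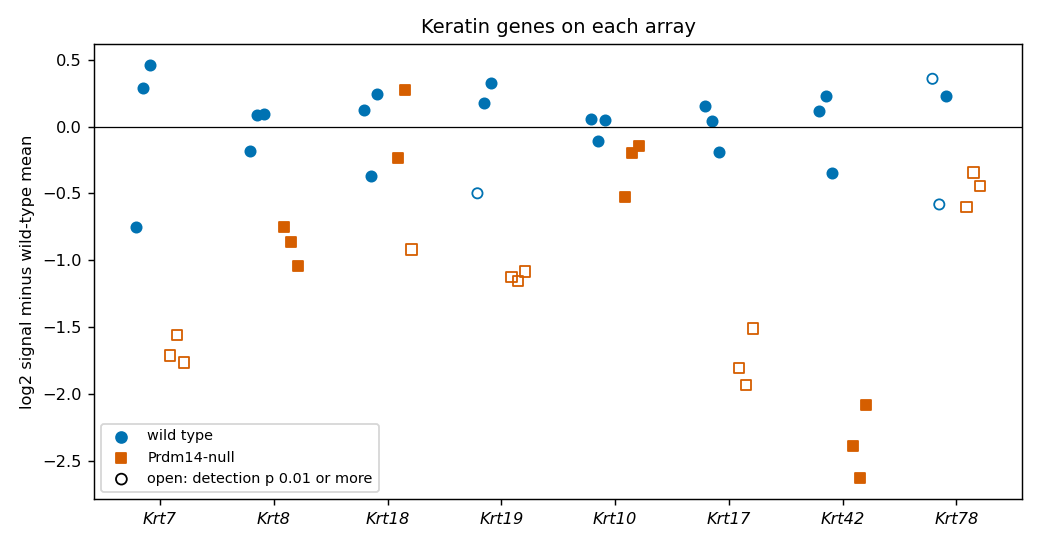
Log2 signal of each measured keratin gene on each array minus that gene's wild-type mean, for wild-type (circles) and Prdm14-null (squares) arrays; filled symbols are above background. The null arrays lie lowest for Krt42, and they span the wild-type range for Krt18.

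The other keratin genes with a named probe were *Krt10*, *Krt17*, *Krt42* and *Krt78*. Of the 3 that were tested, 2 were called lower and 0 higher (0 higher also at an unadjusted p under 0.05, limma), with a median fitted log2 difference of -1.75, or -1.07 with *Krt17* at its bound, against 0.02 over all tested genes. Of all tested genes, 8.38% were called lower and 6.68% higher. *Krt42*, a type I keratin, gave 9.36, 9.48 and 8.90 in wild-type and 6.85, 6.61 and 7.16 in *Prdm14*-null samples. Its groups lay far apart, and all 3 of its probes were called. The log2 differences of the brighter 2 were -2.37 (adjusted p = 3.88e-05, limma) and -2.83, and the dimmest, above background in no null sample, was at least 2.62-fold lower. *Krt17*, a type I keratin of basal and stressed epithelia, gave 6.98, 6.87 and 6.64 in wild-type and 5.02, 4.89 and 5.32 in *Prdm14*-null samples. It was above background on no null array and was at least 2.10-fold lower (adjusted p = 4.54e-05, limma). *Krt10*, a type I keratin of suprabasal epidermis, differed by -0.29 (adjusted p = 0.123, limma) and was lower by the unadjusted limit of 0.05. *Krt78* was too dim to test. Probes of keratins, a family of close paralogs, may share signal.

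Keratin genes lie in clusters, type II with *Krt18* on chromosome 15 and the other type I genes on chromosome 11. In these data the median log2 difference was -0.18 over the 336 tested genes of chromosome 15 and -0.14 over the 724 of chromosome 11, lower than on any other autosome. With each chromosome's median removed, *Krt7* and *Krt8* were still called, at -1.51 (adjusted p = 0.00421) and -0.72 (adjusted p = 0.00295, limma). Around the chromosome 15 cluster, 2 of 6 tested genes among the 10 that follow *Krt18* were called lower, namely *Csad* (-0.64, adjusted p = 0.00988) and *Itgb7* (-1.07, adjusted p = 0.00314). Among the 10 genes before *Krt7*, 1 of 3 tested was called lower, *Grasp* (-1.95, adjusted p = 0.000108), and 0 of these neighbours were called higher (limma). At an unadjusted p under 0.05, 1 was higher. Uncalled neighbours ran from -0.44 for *Spryd3* (adjusted p = 0.0240) to 0.35 for *Rarg* (adjusted p = 0.0232, limma). Over all tested genes, 8.38% were called lower and 6.68% higher. Removing a chromosome's median takes out a shift of the whole chromosome and not one of a region. The part of the chromosomes or of this region in the keratin result was not tested.

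*Esrp1* encodes an RNA-binding protein that drives the epithelial splicing pattern of *Fgfr2*, *Cd44*, *Ctnnd1* and *Enah*. Its signals were 5.51, 5.71 and 6.29 in wild-type and 8.37, 9.04 and 9.15 in *Prdm14*-null samples. Every null sample was far above every wild-type sample, and of the wild-type arrays only the third was above background. *Esrp1* rose by 3.01 on the log2 scale, an 8.07-fold higher fitted level (SE 0.24, 95% confidence interval 2.46 to 3.57, adjusted p = 5.07e-05 from limma). On the deposited scale the signals were 71.8, 107 and 153 in wild-type and 430, 561 and 579 in *Prdm14*-null samples. The size of the rise depended on how signal near background was treated: the log2 difference was 3.01 as processed here, 2.28 without background correction and 1.67 in the authors' processed values, and *Esrp1* was called in all 3.

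The related *Esrp2*, which acts on largely the same exons, was called in the other direction. By its brighter probe it stood at 6.93, 7.18 and 7.35 in wild-type and at 6.46, 6.28 and 6.29 in *Prdm14*-null samples, with no overlap. A dimmer probe, above background on 2 wild-type arrays and 0 null arrays, was not tested, and its groups overlapped. *Esrp2* fell by 0.81 on the log2 scale (SE 0.13, adjusted p = 0.00178 from limma), a call that ended without the second null sample (-0.78, adjusted p = 0.0106). Of 6 tested known targets of ESRP splicing, 1 was called lower and 0 higher (1 higher at an unadjusted p under 0.05, limma). The uncalled *Fgfr2* and *Scrib* (-0.33) were lower by the same unadjusted limit, and the median of the list was -0.23. Over all tested genes, 8.38% were called lower and 6.68% higher. The called gene was *Slc37a2*, a sugar-phosphate transporter (-0.83, adjusted p = 0.00346), which lost its call in 4 of the 6 fits without 1 sample, those leaving out the second or the third sample of either genotype (-0.83 to -0.74, adjusted p = 0.0129 to 0.0176). *Fgfr2*, the receptor with the best known ESRP-dependent exons, differed by -0.49 (adjusted p = 0.0254). Splice forms were not measured by these values.

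The named genes whose profile over the 6 arrays was closest to that of *Esrp1*, by the root mean square difference of wild-type-centred log2 signals, were *Wnt8a* (0.250), *Hs6st2* (0.328) and *Otx2* (0.404). *Wnt8a* encodes a Wnt ligand, *Hs6st2* a heparan sulphate 6-O-sulphotransferase and *Otx2* a homeobox factor of the epiblast and forebrain. *Wnt8a* and *Hs6st2* were above background on no wild-type array and *Otx2* on 1, so their wild-type values sat near background as those of *Esrp1* did. For *Krt8* the closest were *Csrnp1* (0.0574), *Etnk1* (0.0721) and *Cdc14a* (0.0724). *Csrnp1* encodes a nuclear protein, *Etnk1* an ethanolamine kinase and *Cdc14a* a phosphatase, and they differed by -0.91, -0.80 and -0.91 between the genotypes.

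*Cdh1*, the gene of E-cadherin, was one of the brighter members, with signals of 10.48, 10.66 and 10.29 in wild-type and 10.49, 9.85 and 10.15 in *Prdm14*-null samples. The first null sample matched the wild-type samples and the second was the lowest. The difference was -0.32 (SE 0.17, 95% confidence interval -0.70 to 0.07, adjusted p = 0.208 from limma), so that a fall of up to 0.70 on the log2 scale was not excluded by the interval. The gene of P-cadherin, *Cdh3*, was called lower. It gave 6.63, 7.20 and 7.21 in wild-type and 5.28, 5.69 and 5.72 in *Prdm14*-null samples, was not above background in any null sample and was at least 2.38-fold lower (adjusted p = 0.000582, limma). The difference between the changes of the 2 cadherins was not tested.

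**Figure D3:**
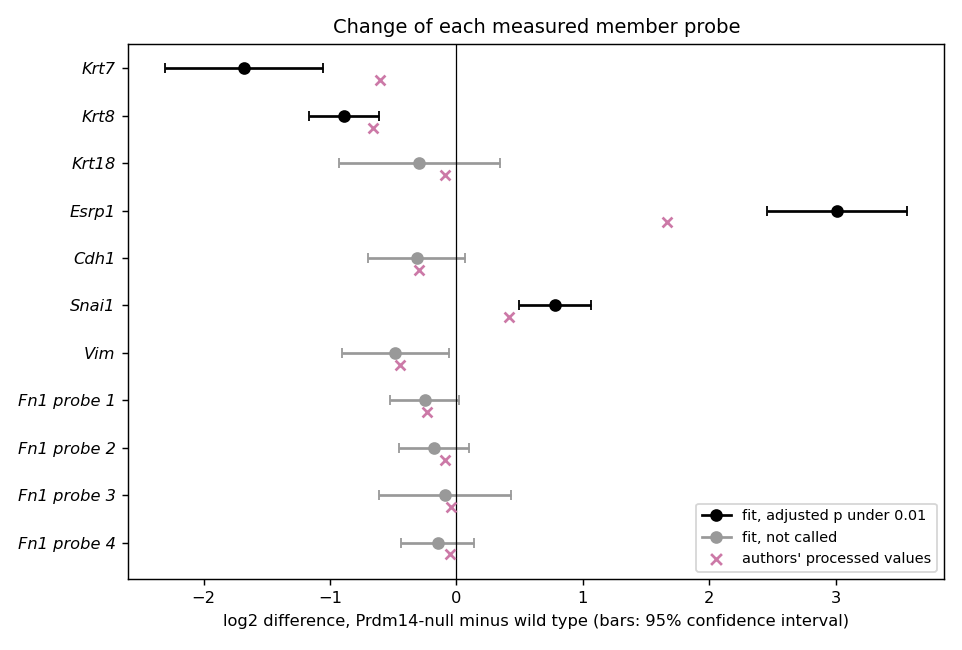
Log2 difference, Prdm14-null minus wild type, of each of the 11 tested probes (points) with its 95% confidence interval (bars), black where the adjusted p was under 0.01, and the difference in the authors' processed values (crosses). Krt7 and Krt8 lie to the left of 0, Esrp1 and Snai1 to the right, and the authors' values have the same sign for all 11 probes.

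*Snai1*, the zinc-finger repressor that gives its name to the Snail family, stood at 6.74, 6.97 and 6.8 in wild-type and at 7.57, 7.83 and 7.44 in *Prdm14*-null samples. The lowest null sample was above the highest wild-type sample. *Snai1* rose by 0.78 on the log2 scale, a 1.71-fold higher level (SE 0.12, 95% confidence interval 0.49 to 1.06, adjusted p = 0.00221 from limma). Without the third wild-type sample the rise was 0.76 with an adjusted p of 0.0115, and in the other 5 fits without 1 sample it was called. The rise in the authors' processed values was 0.42.

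Of 5 other EMT transcription factors tested, 2 were called lower and 0 higher, also 0 higher at an unadjusted p under 0.05, with a median of -0.82 (limma). Over all tested genes, 8.38% were called lower and 6.68% higher. The list and its median include *Id2*, which encodes an inhibitor of basic helix-loop-helix factors and not an inducer of EMT. Its 2 probes fell on both sides of the threshold, at -1.05 for the brighter one (adjusted p = 0.0303) and -1.53 for the dimmer one (adjusted p = 0.00508, limma), which was called lower. *Snai3*, the least studied Snail family member, gave 6.97, 7.04 and 6.99 in wild-type and 5.16, 5.23 and 5.21 in *Prdm14*-null samples. Both groups were narrow and fully separate, no null array was above background, and the transcript was at least 2.36-fold lower (adjusted p = 3.24e-06, limma). *Zeb1*, a repressor of *Cdh1* and of the ESRP genes in carcinoma cells, gave 8.41, 8.51 and 8.66 against 7.97, 7.64 and 7.50. It fell by 0.82 on the log2 scale (SE 0.14, adjusted p = 0.00273 from limma) and lost its call without either the second or the third wild-type sample or the second null sample (adjusted p = 0.0107 to 0.0145, differences -0.83 to -0.76). *Twist1*, a basic helix-loop-helix EMT factor, differed by 0.30 (adjusted p = 0.311, limma). By the unadjusted limit of 0.05, *Tcf4* (-0.31) and the brighter *Id2* probe were lower without a call.

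*Vim*, the intermediate filament gene of mesenchymal cells, was bright in both genotypes. Its signals were 10.42, 10.62 and 10.54 in wild-type and 9.65, 10.01 and 10.47 in *Prdm14*-null samples. The third null sample reached the wild-type range while the first lay well below it. The difference was -0.48 (SE 0.19, 95% confidence interval -0.91 to -0.06, adjusted p = 0.0927 from limma), and it was not called. Without the third null sample it came to -0.70 with an adjusted p of 0.0102. The *Vim* minus *Krt8* difference on each array was 0.40 larger in the null samples (exact permutation test, two-sided, p = 0.4, adjusted p = 0.4), again with 0.1 as the smallest p possible.

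*Fn1*, the gene of the matrix protein fibronectin, was measured by 4 probes, and none was called. The brightest gave 10.35, 10.38 and 10.08 in wild-type and 10.07, 9.86 and 10.12 in *Prdm14*-null samples. The groups overlapped through the third sample of each genotype. The difference was -0.25 (SE 0.12, 95% confidence interval -0.52 to 0.02, adjusted p = 0.160 from limma), and the other 3 probes gave -0.18, -0.09 and -0.15. The arrays measured transcripts and not the fibronectin protein that coated the dishes.

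Other mesenchymal and matrix genes gave a mixed picture, with 2 of 8 tested genes called higher, 1 lower and a median of 0.38. Over all tested genes, 6.68% were called higher and 8.38% lower. At an unadjusted p under 0.05, 4 of the 8 were higher, among them *Col5a1*, a fibrillar collagen gene (0.89, adjusted p = 0.0228), and *Itgb1*, an integrin subunit (0.52, adjusted p = 0.0157, limma). This count cannot be set against the shares called, since more of all genes pass the unadjusted limit. *Thy1*, a surface glycoprotein of fibroblasts and other cells, gave 5.10, 4.99 and 4.98 in wild-type and 6.45, 7.25 and 7.32 in *Prdm14*-null samples. Its probe was above background in all 3 null samples and in 0 wild-type samples, at least 2.53-fold higher (adjusted p = 0.000221, limma). *Mmp14*, a membrane-bound matrix metalloproteinase, rose by 1.03 on the log2 scale (SE 0.15, adjusted p = 0.00117). *Sparc*, a secreted matrix glycoprotein, fell by 0.67 (SE 0.11, adjusted p = 0.00223) and lost its call when the second or the third wild-type sample or the second null sample was left out (adjusted p = 0.0102 to 0.0135). *Thy1* was the 1 fibroblast marker of 9 listed that had a named probe, so that list could not be read beyond it.

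Among other epithelial junction and surface genes, 2 of 20 tested were called higher and 4 lower, and the median of -0.07 was close to that of all genes. Of all tested genes, 6.68% were called higher and 8.38% lower. *Rab25*, a small GTPase of epithelial recycling endosomes, was above background on no null array and at least 2.19-fold lower (adjusted p = 0.000594, limma). *Ap1m2*, the epithelial subunit of the AP-1 sorting adaptor, gave 6.59, 6.83 and 6.68 in wild-type and 8.14, 7.64 and 8.17 in *Prdm14*-null samples. All null samples were higher, and all 4 of its probes were called, with log2 differences of 1.16 to 1.28 (adjusted p = 0.000400 for the brightest). *Spint1*, an inhibitor of the membrane protease matriptase, fell by 0.77 (SE 0.09, adjusted p = 0.000448), and the related *Spint2* had a difference of 0.75 (adjusted p = 0.00731) that was called in 0 of the 6 fits without 1 sample (0.59 to 0.83, adjusted p = 0.0113 to 0.0257). *St14*, the gene of matriptase, differed by -0.71 (adjusted p = 0.00505) and remained called in 1 of those 6 fits, the one without the first wild-type sample. With all samples, the dimmer *St14* probe was called lower too (-0.84, adjusted p = 0.00759, limma), as was the dimmer *Spint1* probe (-0.97, adjusted p = 0.000419). By a dimmer probe alone, *Dsg2*, a desmosomal cadherin, was called higher (0.65, adjusted p = 0.00183) and *Tjp3*, a tight junction scaffold, was called lower (at least 1.22-fold, adjusted p = 0.000323). The catenins that join cadherins to actin were not called, with -0.08 for *Ctnna1*, -0.29 for *Ctnnb1* and -0.07 for *Ctnnd1*. The claudins, the strand proteins of tight junctions, were not called either, from -0.49 for *Cldn3* to 0.86 for *Cldn6* (adjusted p = 0.0130).

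Of 8 tested regulators of epithelial state, *Esrp2* included, 2 were called lower and 0 higher (1 higher at an unadjusted p under 0.05, limma). The uncalled *Grhl1* (-0.39) and *Grhl3* were lower by the same unadjusted limit. The median fitted difference was -0.30, or -0.17 with *Grhl1*, above background in no null sample, at its bound. Among all 8343 tested genes, 8.38% were called lower and 6.68% higher. The second called gene was *Klf5*, a Krüppel-like factor of ES cells and epithelia, with a difference of -0.66 (adjusted p = 0.00277, limma). Its call ended without the second wild-type sample (adjusted p of 0.0131, difference -0.62) and without the second null sample (-0.58, adjusted p = 0.0142). *Grhl2*, an activator of *Cdh1* and *Esrp1* in epithelia, differed by 0.70 with overlapping groups (adjusted p = 0.0542), *Grhl3* by -0.40 (adjusted p = 0.0166) and *Ovol2*, a repressor of EMT factors, by 0.06.

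**Figure D4:**
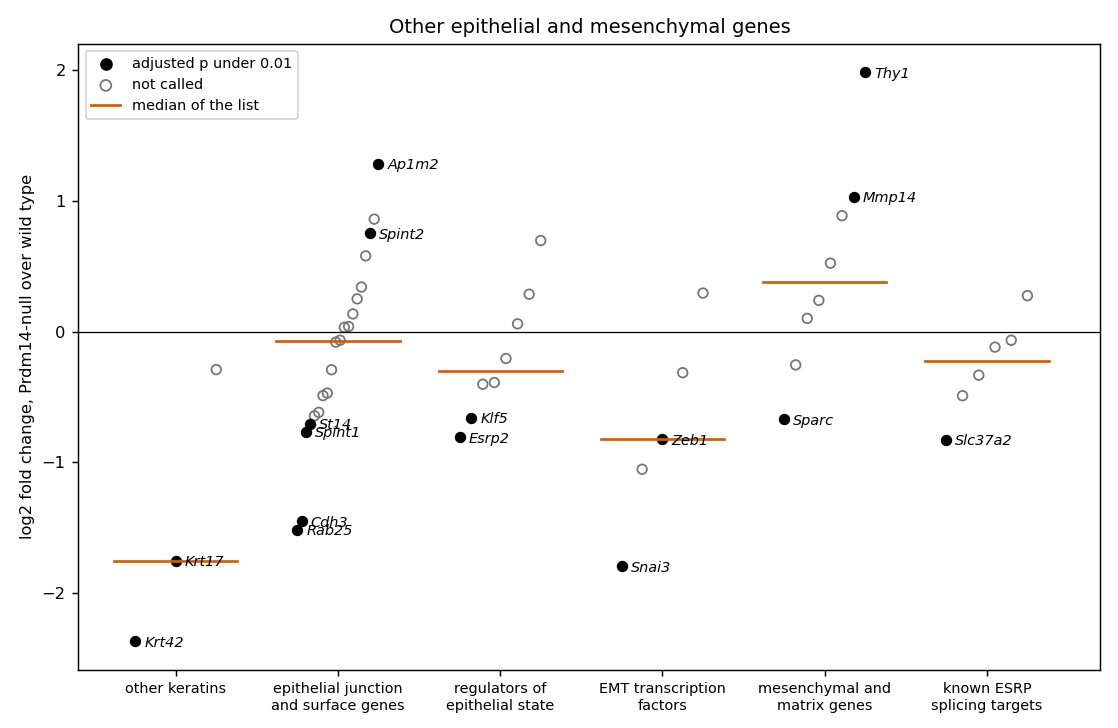
Log2 fold change, Prdm14-null over wild type, of the tested genes in 6 further lists (brightest probe of each gene), filled and named where the adjusted p was under 0.01, with the median of each list as a line. The keratin list has 0 genes above 0, and the other 5 lists hold genes on both sides of 0.

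Simple keratins are also made by trophectoderm and endoderm, and in bulk samples fewer cells of a type and less RNA per cell cannot be told apart. The summed background-corrected signal of the 4 named trophectoderm markers, of 7 listed, was 2077 to 3515 in wild-type and 1691 to 2279.6 in *Prdm14*-null samples, with overlapping ranges. Of its 3 tested genes, *Gata3* was called higher (1.5), with only 1 wild-type array above background, and *Cdx2* was not called (-0.34). *Tfap2c*, the last of them, differed by -0.74 by its brightest probe (adjusted p = 0.0343), and its other 2 probes gave -0.93 (adjusted p = 0.00853, called lower) and -0.44. The brightest *Tfap2c* probe gave 10.77, 11.57 and 11.47 in wild-type and 10.39, 10.38 and 10.82 in *Prdm14*-null samples. It made up most of the trophectoderm sum, which therefore mainly followed this gene. The authors list *Tfap2c*, as *Tcfap2c*, among genes of early germ cells that were lower in the null ES cells. The 2 named endoderm markers, of 9 listed, summed to 80.7 to 121 in wild-type and 111 to 328 in *Prdm14*-null samples, and the tested *Dab2* differed by 1.10 (adjusted p = 0.0596). The streak markers, 2 named of 7, summed to 443 to 622 against 321 to 416, with *Gsc* called lower (-1.01). The 6 ES cell markers summed to 21780.5 to 23120.6 against 23029 to 24768, with *Sox2* called higher by its brighter probe (0.54) and not by its dimmer one (0.30). *Pou5f1* was called higher by its dimmer probe (0.60, adjusted p = 0.00336, limma) and not by its brighter one (0.35, adjusted p = 0.0284). Each named marker gene was above background on at least 1 array, and the part of these cells in the keratin and *Esrp1* results was not tested.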

How the data were processed

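The authors deposited unnormalized signal intensities of 45281 probes per array. A deposited detection p-value accompanied each signal. The authors also gave processed values close to a log2 scale for 15961 probes. The submitters' processing notes name lumi, with no settings. Signals were background-corrected with neqc of limma 3.58.1 in R 4.3.3 (offset 16, quantile normalization). The 14436 probes whose detection p-value was under 0.01 for 3 or more of the 6 arrays were fitted with lmFit and eBayes, genotype as the only term, and p-values were adjusted by Benjamini-Hochberg over all of them. The procedure was tested on simulated data. Of the tested probes 12582 carried 1 gene symbol in the platform annotation, 6 several and 1848 none, and the brightest tested probe stood for a gene.

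Lower bounds on a fold compare the bright group's mean with the dim group's mean of the lowest signal among probes above background on each array, or the probe's own signal where higher. These bounds are point estimates and leave out the spread between samples. The number of arrays limits the precision.

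The members and lists were chosen with earlier results of these data known. Named were all members, up to 4 called genes per list with the largest change, and the 3 genes closest to *Esrp1* and to *Krt8*. *Spint2*, *St14*, the uncalled list genes, the neighbours of the keratin cluster, the cell type markers, *Eif2s3y* and *Uty* were named after their values were seen. Alternatives were other background, normalization, filter, model and threshold settings and each sample left out. For the lists they were added after seeing the data.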

Additional observations from a re-analysis of the deposited data

How the results depend on the processing

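Under the 11 other settings, *Krt8* and *Esrp1* were called throughout, at -0.93 to -0.66 and 1.67 to 3.01 on the log2 scale, and *Krt18*, *Cdh1*, *Vim* and the 4 *Fn1* probes kept their direction without a call. *Krt7* and *Snai1* lost their calls with no filter on dim probes (adjusted p = 0.0241 and 0.0110), which left 1 epithelial gene called lower and 0 mesenchymal genes higher. *Krt19*, tested once probes above background on at least 1 array were kept, was then called lower (adjusted p = 0.00408), and it was not called with no filter (adjusted p = 0.0245) or in the authors' processed values (adjusted p = 0.0135). Its difference was -1.12 as processed here, -0.65 with no background correction, -0.59 with an offset of 50 and -0.28 in the authors' processed values. As processed here, its null signals (4.60 to 4.67) lay below the lowest detectable signal of every null array. Neither that call nor these differences therefore give a fold for *Krt19*. At a threshold of 0.05, 1848 probes were higher and 1812 lower, against 892 and 1088.

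With each sample left out in turn, 465 to 693 probes were called higher and 703 to 932 lower, epithelial genes called lower numbered 1 to 2, and mesenchymal genes called higher 0 to 1. *Krt18* ranged from -0.58 to 0.017, its sign turning without the third null sample, and the third *Fn1* probe from -0.36 to 0.11, turning without the second wild-type (0.11) or the third null sample (0.022). The cause was not tested.

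Same-numbered samples did not deviate together (correlations -0.03, -0.06 and -0.12), so the numbers were not taken as pairs. With the replicate number as a block, 643 probes were called higher and 897 lower, and the calls of the members did not change. *Klf5* and *St14* (adjusted p = 0.0142) were not called with it.

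Among the lists, the 2 called keratins were called under every setting. Called junction and surface genes ranged from 1 to 4 higher and 3 to 7 lower, EMT factors from 1 to 3 lower, mesenchymal genes from 2 to 4 higher and 0 to 1 lower, epithelial regulators from 0 to 1 higher and 0 to 3 lower, and known ESRP targets from 0 to 3 lower.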
